A study of Mus musculus with 8 samples.

Results

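The Z-disc and giant sarcomere scaffold genes were followed in gastrocnemius, a calf muscle of mostly fast fibres, from mice with serum-transfer arthritis. The members were chosen by name: Ttn, Neb, Actn2, Actn3, Myoz1, Myoz2, Ldb3, Myot, Mybpc1 and Mybpc2. All 10 were found by symbol among the 21833 gene symbols of each of the 8 count tables, and all 10 were among the 12755 genes tested. The RA group (n = 4) were male C57BL/6J mice aged 12 weeks that had 100 µL of pooled K/BxN serum in the peritoneum on days 0 and 2. The RA+Dipy group (n = 4) were mice of the same strain, sex and age with the same serum, given dipyridamole at 25 mg/kg per day from day 0. Dipyridamole blocks the uptake of adenosine into cells and inhibits phosphodiesterases. Muscle was collected on day 16 in both groups. Both groups carried the arthritis serum, and no muscle from mice without it was analysed here. The treatment protocol field carries the dipyridamole text for all 8 samples, and the groups here follow the sample titles. The genotype field of the labels names K/BxN, whereas the series' design text describes C57BL/6J recipients of K/BxN serum, a passive model in which antibodies from the pooled serum bring on the arthritis. According to its title the series is about preventing rheumatoid cachexia with dipyridamole, cachexia being the muscle loss that goes with arthritis. The comparison asks how scaffold transcripts of the sarcomere differ when the drug is given.

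The sarcomere is the contractile unit of striated muscle, and the Z-disc is the plate at each of its ends where the thin filaments of neighbouring sarcomeres are tied together. Alpha-actinin crosslinks the actin filaments there, and myozenins, ZASP (the product of Ldb3) and myotilin bind alpha-actinin and hold other proteins at the plate. Titin runs from the Z-disc to the M-band as an elastic spring, nebulin lies along the thin filament, and myosin-binding protein C decorates the thick filament. Several of the families have a member typical of fast fibres (Actn3, Myoz1, Mybpc2) and one of slow or all fibres (Actn2, Myoz2, Mybpc1).

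Reads of 100 bases can be told apart between these relatives. In the coding sequences of GENCODE vM21, Actn2 and Actn3 share no identical run longer than 51 bases, Mybpc1 and Mybpc2 none longer than 21, and Myoz1 and Myoz2 none longer than 12. The pair of windows of 100 bases in which Actn2 and Actn3 are most alike is shown because the ratio of their counts is compared further on. Capitals mark the 9 bases that differ. The windows span bases 1003 to 1102 of the Actn2 coding sequence and 1021 to 1120 of the Actn3 coding sequence, both exonic.
Actn2: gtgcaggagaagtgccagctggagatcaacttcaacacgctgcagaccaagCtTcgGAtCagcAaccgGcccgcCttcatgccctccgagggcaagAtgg
Actn3: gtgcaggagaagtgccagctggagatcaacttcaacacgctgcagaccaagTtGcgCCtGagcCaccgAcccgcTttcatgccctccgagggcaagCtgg
The closest windows of Mybpc1 and Mybpc2 differ at 19 bases and those of Myoz1 and Myoz2 at 33. No stretch of 100 bases is shared by the members of a pair.

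Promoters of 6 members (7 start sites) were in the RefSeq promoter table of GRCm38.p6, and the 250 bases before each start were searched on both strands. The sites of the muscle factor MEF2, given here by name, were found before Ttn and Myoz2 and before none of the other 4 members with an entry (Actn2, Ldb3, Mybpc1 and Mybpc2). Of all 32851 promoters of the same length, 2.92% hold such a match. The E-box, CANNTG, which myogenic factors bind, was found before 5 of the 6 members, Ldb3 being the exception, and 66.2% of all promoters hold it. The Ttn and Myoz2 sequences are shown because they are the 2 with a MEF2 match. The run of 10 capitals is the MEF2 match and each run of 6 capitals is an E-box. A match is a description of the letters and was not tested for binding.
Ttn, chr2:76982548-76982797, minus strand: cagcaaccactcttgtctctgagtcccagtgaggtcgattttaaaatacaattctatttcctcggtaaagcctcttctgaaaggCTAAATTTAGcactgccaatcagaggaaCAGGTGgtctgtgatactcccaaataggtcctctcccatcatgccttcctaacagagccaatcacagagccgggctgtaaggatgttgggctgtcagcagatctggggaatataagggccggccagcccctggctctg
Myoz2, chr3:123034988-123035237, minus strand: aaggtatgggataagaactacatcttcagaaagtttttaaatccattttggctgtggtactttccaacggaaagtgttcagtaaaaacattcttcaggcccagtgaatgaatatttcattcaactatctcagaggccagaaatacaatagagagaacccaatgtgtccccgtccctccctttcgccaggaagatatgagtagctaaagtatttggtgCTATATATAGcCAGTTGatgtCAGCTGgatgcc

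Library totals ran from 16405268 to 50647761 counts. The upper limit that a count of 0 allows is 3 counts. These amount to 0.0592 to 0.183 CPM (counts scaled to the library total) without TMM factors. The CPM values of genes given below include TMM factors, so these limits are not on quite the same scale. The lowest member count in any library was 853, so depth did not limit the members, although the limits cover counting error only. RA replicate 4 and RA+Dipy replicate 1 stood apart: 39.3% and 18.4% of the 6941 genes with a mean of at least 10 CPM lay more than 2-fold from their 8-library median, against 0.101% to 0.965% in the other 6 libraries. Markers of fast muscle were abundant, and the labels name the muscle, gastrocnemius, without a fibre type. Myh4, the fast myosin, was at 29846 to 52021 CPM and Myh7, the slow myosin, at 39.7 to 129 CPM. Tnnc2, the fast troponin C, was the sole fast-fibre marker near the floor, at 0.880 to 3.10 CPM. The labels give each library as a separate replicate of its group. Results are given with all 8 libraries, and the members' values also without the 2 that stood apart.

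None of the 10 scaffold genes passed the test between RA+Dipy and RA muscle. Of the 10 members 5 had higher fitted means in RA+Dipy (Neb, Myot, Mybpc1, Mybpc2 and Ldb3) and 5 had lower ones (Actn3, Actn2, Myoz1, Ttn and Myoz2), where 52.2% of all genes were higher and 47.8% lower. The largest difference in each direction was that of Actn3, at a log2 fold change of −0.66 (SE 0.37), and that of Myot, at 0.36 (SE 0.46). In edgeR 0 of 10 members passed an adjusted p of 0.05, as did 0% of all 12755 genes (percent of genes called: 0). The members' adjusted p ran from 0.882 to 0.971 in edgeR. At an unadjusted p under 0.05, edgeR gave 0 members, against 3.83% of all genes (1.68% higher and 2.15% lower). DESeq2 and limma-voom called 0 members as well. The median log2 fold change was 0.03 over the members and 0.02 over all genes tested. Groups of bulk tissue libraries cannot tell fewer cells of a type from less RNA per cell.

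The libraries that stood apart held the extremes for most members. RA replicate 4 lay outside the range of the other 6 libraries for 7 of 10 members, 4 below it (Neb, Ldb3, Myot and Mybpc2) and 3 above it (Ttn, Actn2 and Actn3). RA+Dipy replicate 1 lay outside it for 7 members too, below for Actn2, Actn3, Ldb3, Mybpc1 and Mybpc2 and above for Ttn and Myot. Among all genes with a mean of at least 10 CPM, 83.3% lay outside that range in RA replicate 4, as did 72.5% for RA+Dipy replicate 1, so the members' share was not above that of other genes. Without these 2 libraries 0 members passed in edgeR (0 at an unadjusted p under 0.05, against 11.4% of genes, 5.96% higher and 5.45% lower). Of the members 5 were higher and 5 lower there, against 51.3% and 48.7% of genes, and the median was 0.05 over the members and 0.01 over all genes.

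**Figure D1:**
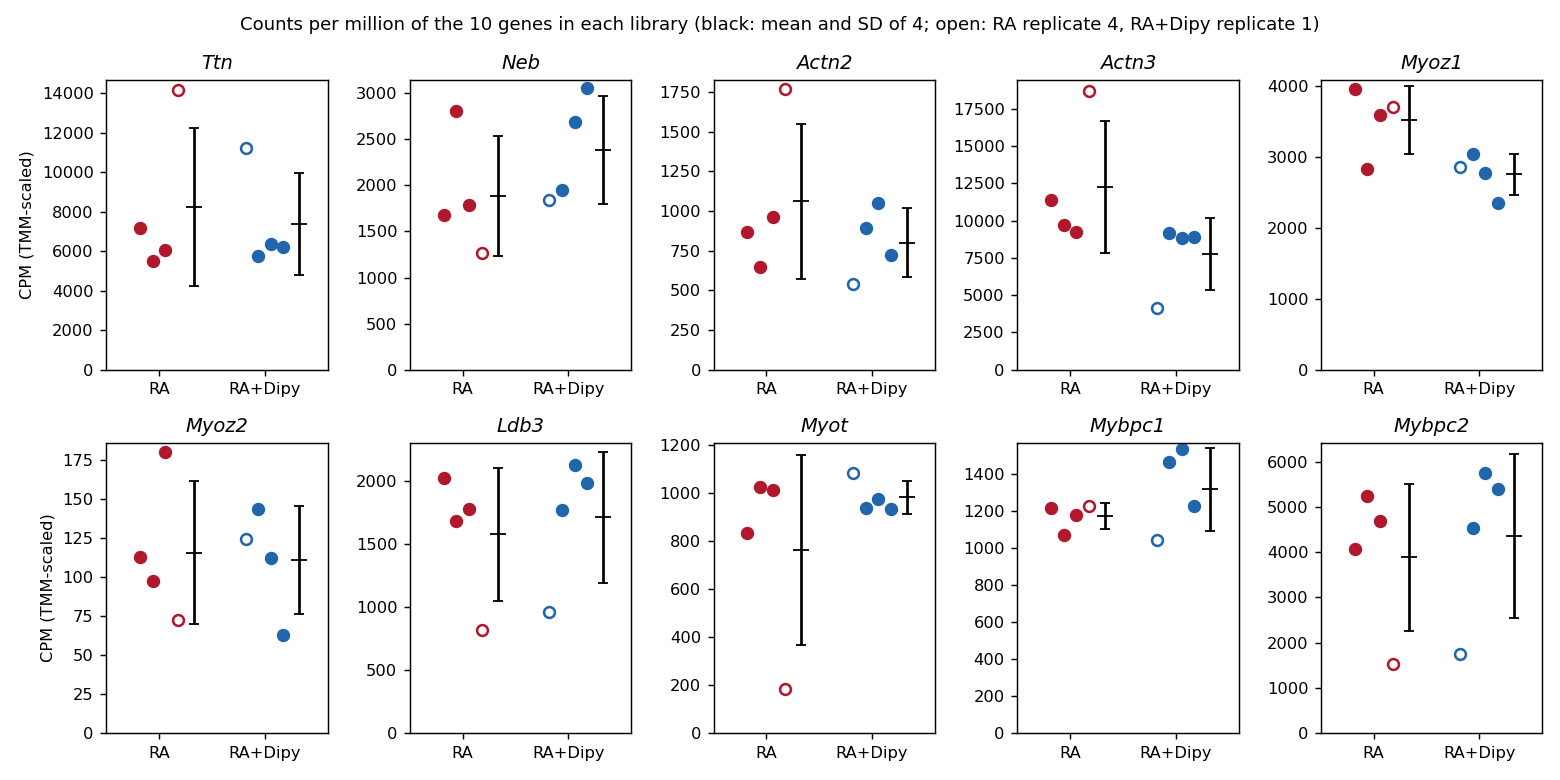
CPM (linear axis from 0) of the 10 genes in the 4 RA and the 4 RA+Dipy libraries, with the mean and SD of each group in black. The open points, RA replicate 4 and RA+Dipy replicate 1, are the highest Ttn values of their groups (14182 and 11221 CPM) and the lowest Ldb3 and Mybpc2 values.

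**Figure D2:**
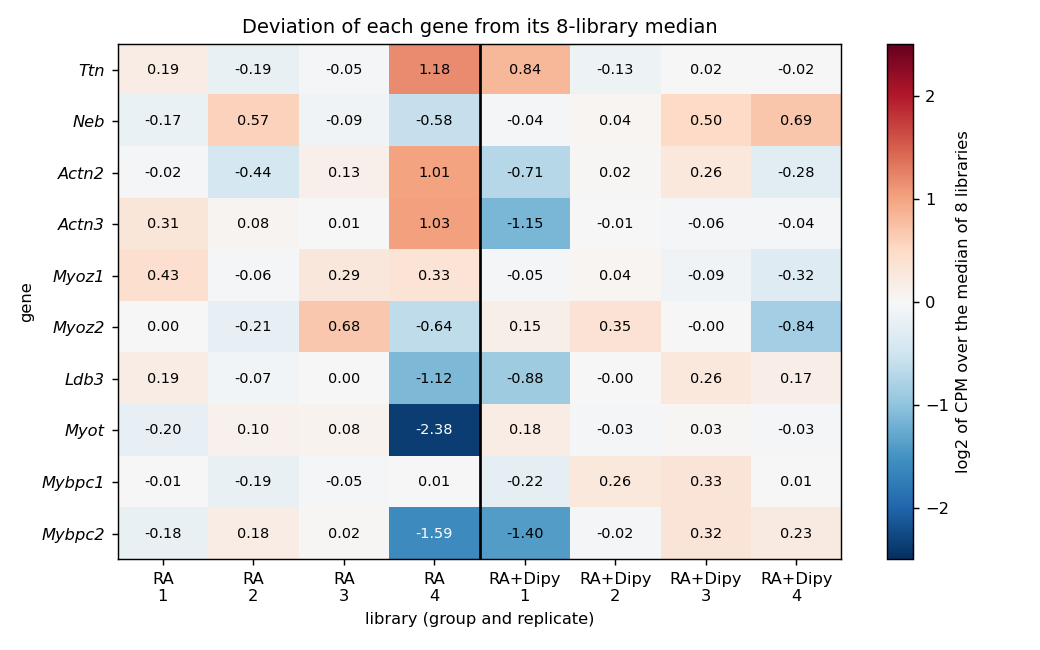
Log2 of each gene's CPM over its median of the 8 libraries, by gene and library, as a colour scale with 0 in white. RA replicate 4 and RA+Dipy replicate 1 have the deepest colours, with Myot in RA replicate 4 the largest deviation at −2.38.

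Titin, encoded by Ttn, is the giant spring of the sarcomere, and its transcript took 0.606% to 1.04% of all counts. Ttn lies on chromosome 2 at 76703980 to 76982547 on the minus strand (GRCm38), with 345 merged exons and a longest annotated transcript of 106.8 kb. In RA the CPM values of replicates 1 to 4 were 7179, 5514, 6076 and 14182. In RA+Dipy they were 11221, 5741, 6346 and 6204. One library in each group stood well apart while the other 6 lay between 5514 and 7179, and the groups overlapped. The group means were 8238 ± 4023 CPM (RA, SD, n = 4) against 7378 ± 2575 CPM (RA+Dipy, n = 4), a log2 fold change of −0.16 (SE 0.40; edgeR adjusted p = 0.932). Without the 2 libraries the value was −0.03 (SE 0.16), with a 95% interval from −0.39 to 0.34. Without RA replicate 4 alone it was 0.26, the opposite sign, and without RA+Dipy replicate 1 alone it was −0.43.

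Nebulin, encoded by Neb, is the giant protein along the thin filament that is tied to its length. Neb lies on chromosome 2 at 52136647 to 52378474 on the minus strand, with a longest annotated transcript of 22.5 kb. In RA its CPM values were 1680, 2807, 1786 and 1270, and in RA+Dipy they were 1842, 1949, 2686 and 3057. The high libraries were RA replicate 2 and RA+Dipy replicates 3 and 4, so both groups held high and low values and they overlapped. The means were 1886 ± 653 CPM (RA) against 2383 ± 585 CPM (RA+Dipy), a log2 fold change of 0.34 (SE 0.34; edgeR adjusted p = 0.882). Without the 2 libraries it was 0.30 (SE 0.25). Without RA replicate 2 alone it was 0.59, and without RA+Dipy replicate 4 or RA replicate 4 alone it was 0.19 or 0.20.

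Neb varied alongside a library-wide measure. Genes with a longest transcript under 2 kb (1446 genes with a mean of at least 10 CPM) had a median log2 deviation from their 8-library median of −0.19 in RA replicate 2, −0.14 in RA+Dipy replicate 3 and −0.31 in RA+Dipy replicate 4. These are the 3 libraries in which Neb was high. The same median was 0.21, 0.19 and 0.36 in RA replicates 1, 3 and 4, 0.38 in RA+Dipy replicate 1 and −0.05 in RA+Dipy replicate 2. Genes over 10 kb (203 genes), the class of Neb itself, had medians of 0.11, −0.01 and 0.13 in the 3 libraries with high Neb. Their medians were −0.07, −0.17 and 0.09 in RA replicates 1, 3 and 4, and −0.04 and 0.02 in RA+Dipy replicates 1 and 2. Neb was lowest in RA replicate 4, where the median of this class was 0.09. Ttn, the longer transcript, was at 5514, 6346 and 6204 CPM in the 3 libraries with high Neb and at 5741 to 14182 CPM in the others. With offsets for GC content and length in the fit, the log2 fold change of Neb was 0.25 against 0.34. The part of transcript length in the Neb values was not tested.

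Alpha-actinin-3, encoded by Actn3, is the fast-fibre crosslinker of actin at the Z-disc and had the highest CPM of the members in 7 of 8 libraries, RA+Dipy replicate 1 being the exception. Actn3 lies on chromosome 19 at 4861216 to 4877909 on the minus strand, with a longest transcript of 2.89 kb. In RA the CPM values of replicates 1 to 4 were 11377, 9681, 9225 and 18724. In RA+Dipy they were 4143, 9152, 8840 and 8907. In CPM every RA library was above every RA+Dipy library, by a narrow margin between RA replicate 3 and RA+Dipy replicate 2. As a share of all counts, without TMM factors, the groups overlapped, also without the 2 libraries that stood apart. RA replicate 3 was at 0.920%, below RA+Dipy replicates 2 to 4 at 0.977%, 0.952% and 1.04%. Actn3 was the 1 member of 10 whose groups did not overlap in CPM, where 2.72% of all genes tested had groups that did not overlap (1.26% lower and 1.46% higher). The means were 12252 ± 4413 CPM (RA) against 7760 ± 2415 CPM (RA+Dipy), a log2 fold change of −0.66 (SE 0.37; edgeR adjusted p = 0.882). The 95% interval ran from −1.49 to 0.17. Without the 2 libraries the groups did not overlap in CPM either, as for 14.1% of genes there (6.23% lower), and the log2 fold change was −0.16 (SE 0.16; edgeR adjusted p = 0.658). With the GC and length offsets and all libraries it was −0.43.

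Alpha-actinin-2, encoded by Actn2, is found in all skeletal fibres and in the heart. Actn2 lies on chromosome 13 at 12269426 to 12340760 on the minus strand. In RA its CPM values were 866, 647, 963 and 1765, and in RA+Dipy they were 539, 891, 1050 and 724. RA replicate 4 was the highest of the 8 libraries and RA+Dipy replicate 1 the lowest, as for Actn3, and the groups overlapped. The log2 fold change was −0.40 (SE 0.37; edgeR adjusted p = 0.882) with all libraries and 0.12 (SE 0.20) without the 2, the opposite sign. It was −0.22 with the GC and length offsets.

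Myozenin-1 and myozenin-2, encoded by Myoz1 and Myoz2 and also known as calsarcins, bind alpha-actinin and the phosphatase calcineurin. Myoz1, the fast-fibre form, lies on chromosome 14 at 20649107 to 20656540. Its CPM values were 3958, 2836, 3602 and 3714 in RA and 2857, 3040, 2776 and 2358 in RA+Dipy. In CPM RA replicates 1, 3 and 4 were above all of RA+Dipy, and RA replicate 2 lay among the RA+Dipy values. As a share of all counts, without TMM factors, RA replicate 4 was below every other library, at 0.263%. RA+Dipy ran from 0.264% to 0.324% on that scale. The means were 3528 ± 484 CPM (RA) against 2758 ± 288 CPM (RA+Dipy), a log2 fold change of −0.36 (SE 0.27; edgeR adjusted p = 0.882). Without the 2 libraries it was −0.34 (SE 0.18; edgeR adjusted p = 0.459), with a 95% interval from −0.74 to 0.06. Myoz1 ran opposite to Neb: over the 6 libraries that did not stand apart it was lowest in the 3 with high Neb, where genes under 2 kb were also low. The longest Myoz1 transcript has 1.29 kb, and with offsets for GC content and length in the fit its log2 fold change was −0.15. The part of transcript length in the Myoz1 values was not tested either.

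Myoz2, the slow-fibre and cardiac form, was the least abundant member, at 62.6 to 180 CPM. It lies on chromosome 3 at 123006206 to 123035015. Its CPM values were 113, 97.5, 180 and 72.1 in RA and 124, 144, 112 and 62.6 in RA+Dipy. RA replicate 3 was the highest, RA+Dipy replicate 4 the lowest, and the groups overlapped. The log2 fold change was −0.06 (SE 0.35; edgeR adjusted p = 0.971). Leaving out RA replicate 3 gave 0.23, leaving out RA+Dipy replicate 4 gave 0.13, and the fit of the 6 libraries gave −0.28. With the GC and length offsets it was −0.31.

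Slow-fibre markers differed between libraries as well. The summed CPM of 9 slow-fibre markers (Myh7, Myl2, Myl3, Tnnt1, Tnni1, Tnnc1, Tpm3, Atp2a2 and Casq2) reached 1948 in RA replicate 3 and was as low as 456 for RA+Dipy replicate 4. These were also the highest and the lowest Myoz2 libraries. It was 1211, 703 and 1729 in RA replicates 1, 2 and 4 and 1712, 1160 and 1090 in RA+Dipy replicates 1 to 3. RA replicate 4, with the second highest marker sum, had the second lowest Myoz2, so the library orders differed there. Of the 9 markers 8 were lower in RA+Dipy, against 47.8% of all genes. Their median log2 difference was −0.40, and 0 passed in edgeR. Without the 2 libraries that stood apart 9 were lower, against 48.7% of genes, with a median of −0.59, and 0 passed. None of the markers was at 0. Among the fast myosins, Myh1 was at 463 CPM in RA replicate 4 and 575 CPM for RA+Dipy replicate 1, against 1910 to 3689 in the other 6 libraries. Its log2 fold change was 0.60 (SE 0.61; edgeR adjusted p = 0.883) and 0.63 without the 2 (adjusted p = 0.418). Myh2 stood at 0.37 (SE 0.66) and 0.39, and was low in the same 2 libraries, at 203 and 219 CPM. The part of the slow-fibre markers in the Myoz2 values was not tested.

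**Figure D3:**
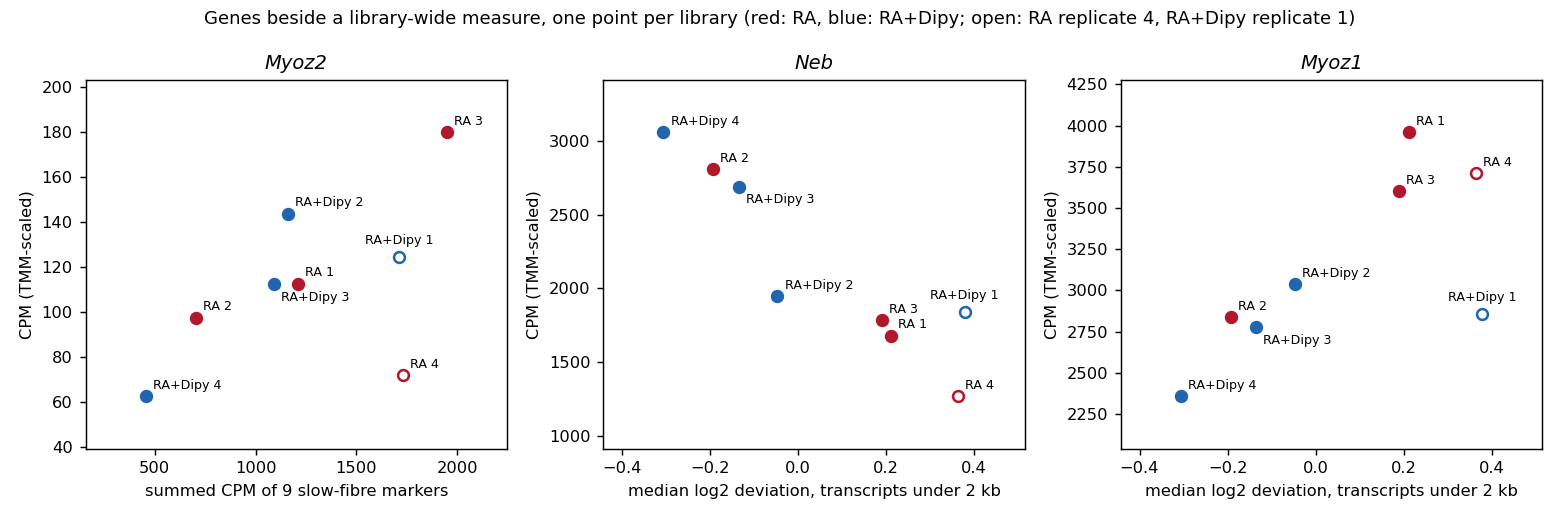
CPM of Myoz2 against the summed CPM of 9 slow-fibre markers (left), and of Neb (middle) and Myoz1 (right) against the median log2 deviation of genes with transcripts under 2 kb, 1 point per library. Neb is high and Myoz1 low in RA replicate 2 and RA+Dipy replicates 3 and 4, where that median was −0.19, −0.14 and −0.31.

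ZASP, the PDZ and LIM domain protein encoded by Ldb3, stabilises the Z-disc under load. Ldb3 lies on chromosome 14 at 34526603 to 34588682. Its CPM values were 2020, 1682, 1773 and 816 in RA and 961, 1765, 2121 and 1984 in RA+Dipy. The low value of each group came from the library that stood apart. The other 6 libraries lay within a 1.26-fold range, and the groups overlapped. The log2 fold change was 0.12 (SE 0.37; edgeR adjusted p = 0.947), 0.11 (SE 0.16) without the 2 libraries and −0.09 without RA replicate 4 alone.

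Myotilin, encoded by Myot, binds alpha-actinin and filamin C at the Z-disc. Myot lies on chromosome 18 at 44334074 to 44355724. Its CPM values were 832, 1024, 1010 and 183 in RA and 1081, 935, 973 and 933 in RA+Dipy. All libraries but RA replicate 4 lay between 832 and 1081, and RA replicate 4 stood at 0.192 of the 8-library median. In that library genes with a GC content under 45% (1647 genes) had a median log2 deviation of −0.59, those of 45 to 50% (1741 genes) of −0.28 and those over 55% (1649 genes) of 0.57. The longest Myot transcript has a GC content of 45.8%. Neb (47.0%), also low in that library, and Ttn (47.4%), high in it, have a similar content. The part of GC content in the Myot value of RA replicate 4 was not tested. The log2 fold change of Myot was 0.36 (SE 0.46; edgeR adjusted p = 0.887) with all libraries and −0.0040 (SE 0.15) without the 2, with a 95% interval from −0.34 to 0.33. With the GC and length offsets it was 0.28. Over the 6 libraries its coefficient of variation was 7.30%, which ranked it at 10.4% from the lowest among the 2322 genes with a mean of at least 50 CPM.

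Myosin-binding protein C is encoded by Mybpc1 in its slow form and Mybpc2 in its fast form. Mybpc1 lies on chromosome 10 at 88518279 to 88605152. Its CPM values were 1213, 1068, 1178 and 1222 in RA and 1043, 1463, 1531 and 1226 in RA+Dipy. RA replicate 4 lay among the others, and RA+Dipy replicate 1 was the lowest of the 8 by a small margin, so that the groups overlapped. The means were 1170 ± 71.0 CPM (RA) against 1316 ± 224 CPM (RA+Dipy), a log2 fold change of 0.17 (SE 0.26; edgeR adjusted p = 0.893). Without the 2 libraries the groups did not overlap, as for 7.91% of genes in this direction, and the value was 0.30 (SE 0.15; edgeR adjusted p = 0.456), with a 95% interval from −0.05 to 0.64. With the GC and length offsets and all libraries it was 0.026.

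Mybpc2 lies on chromosome 7 at 44501699 to 44524656. Its CPM values were 4082, 5240, 4687 and 1535 in RA and 1745, 4548, 5762 and 5409 in RA+Dipy. The pattern was that of Ldb3, with 1 low library in each group and the other 6 within a 1.41-fold range. The means were 3886 ± 1637 CPM (RA) against 4366 ± 1820 CPM (RA+Dipy), a log2 fold change of 0.17 (SE 0.47; edgeR adjusted p = 0.940). Without RA replicate 4 alone it was −0.09 and without RA+Dipy replicate 1 alone 0.43. Counting without strand cannot separate Mybpc1 and Mybpc2 reads from those of genes annotated on the opposite strand, which share 5.57% and 5.32% of their exon bases. For Ttn and Neb that share is 0.388% and 0.169%, and the other members share none.

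**Figure D4:**
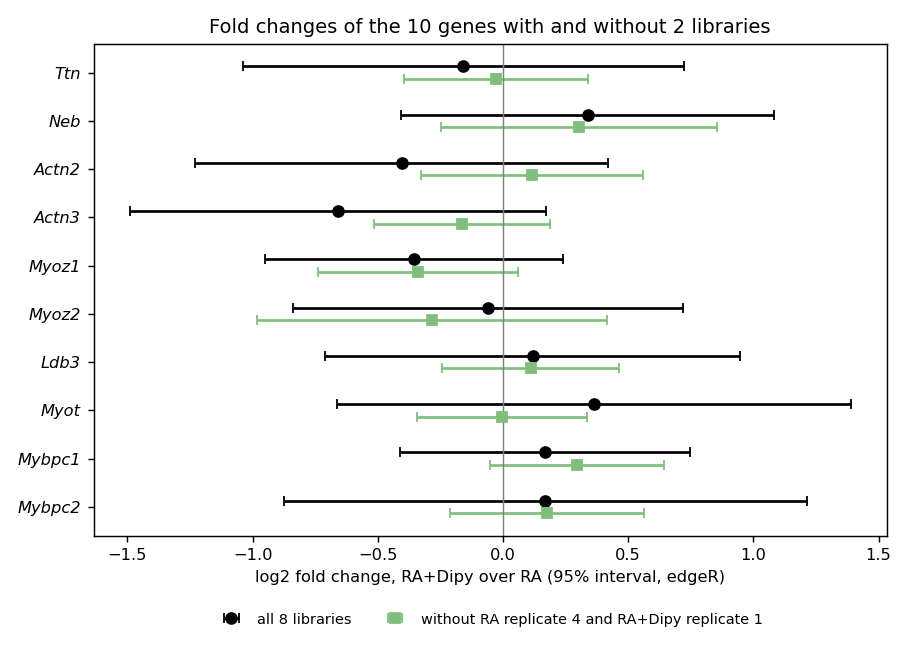
Log2 fold change of RA+Dipy over RA with its 95% interval from edgeR for each of the 10 genes, with all 8 libraries (black) and without RA replicate 4 and RA+Dipy replicate 1 (green). Every interval spans 0, and Actn2 and Myot cross 0 between the fits.

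Levels can be compared between genes only per length, here as CPM divided by the length in kb of the longest annotated transcript. The median of 8 libraries on that scale was 3183 for Actn3 and 2287 for Myoz1, and over the 6 libraries that did not stand apart their ranges met (3062 to 3941 and 1830 to 3071). Mybpc2 followed at 1279, with a range of 1130 to 1596 that met neither neighbour. Myot (432), Ldb3 (346), Mybpc1 (311) and Actn2 (292) formed a middle tier in which each range overlapped that of the next. Neb stood at 84.3 (74.7 to 136), Ttn at 58.7 (51.6 to 67.2) and Myoz2 at 46.6 (26.0 to 74.5) CPM per kb. These ranges are of the 6 libraries, and in them the Neb and Ttn ranges did not meet, whereas Myoz2 spanned the Ttn range. In RA replicate 4 and RA+Dipy replicate 1 Ttn was above Neb per kb, at 2.35 and 1.28 times its level, and over 8 libraries the ranges overlapped (56.5 to 136 for Neb and 51.6 to 133 for Ttn). The fast-fibre forms thus had the 3 highest levels per kb, and the giant transcripts, which rank near the top by reads, were near the bottom per kb. These per-length levels rest on 1 annotated length a gene, and Ttn alone has 25 annotated transcripts.

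Ratios within a library do not depend on how libraries are scaled, but the genes of a pair can differ in length and GC content. The GC content is 54.6% for Myoz1 and 39.7% for Myoz2, and 47.4% for Ttn and 47.0% for Neb. The part of length and GC content in the ratios was not tested. The count ratio of Actn3 to Actn2 was 13.1, 15.0, 9.58 and 10.6 in RA replicates 1 to 4 and 7.69, 10.3, 8.42 and 12.3 in RA+Dipy. The groups overlapped, and the mean log2 ratio was 3.57 ± 0.29 (RA, SD, n = 4) against 3.25 ± 0.30 (RA+Dipy, n = 4), a difference of −0.32 (exact two-sided permutation p = 0.200; adjusted over 4 ratios, 0.686) and of −0.27 without the 2 libraries. Although Actn3 in RA replicate 4 was at 2.04 times its median, its ratio to Actn2 there lay within the range of the other libraries.

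The ratio of Myoz1 to Myoz2 was 35.2, 29.1, 20.0 and 51.5 in RA and 23.0, 21.2, 24.7 and 37.7 in RA+Dipy. The highest value of each group came from RA replicate 4 and RA+Dipy replicate 4, the libraries with the least Myoz2. The difference of mean log2 ratios was −0.31 (exact two-sided permutation p = 0.400; adjusted, 0.686). It was −0.078 without RA replicate 4 and −0.019 without the 2 libraries that stood apart.

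The ratio of Mybpc2 to Mybpc1 was 3.36, 4.91, 3.98 and 1.26 in RA and 1.67, 3.11, 3.76 and 4.41 in RA+Dipy. It was below 2 in the 2 libraries that stood apart and above 3 in the other 6. The difference of means was 0.02 (exact two-sided permutation p = 0.943; adjusted, 0.943), −0.40 without RA replicate 4 and −0.12 without the 2 libraries.

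The ratio of Ttn to Neb was 4.27, 1.96, 3.40 and 11.2 in RA and 6.09, 2.95, 2.36 and 2.03 in RA+Dipy. The 2 libraries that stood apart again held the extreme values, here the highest of each group. The difference was −0.47 (exact two-sided permutation p = 0.514; adjusted, 0.686), and −0.34 over the 6 other libraries. Leaving out RA replicate 4 alone gave −0.0052, and leaving out RA+Dipy replicate 1 alone gave −0.81. The smallest p that the 70 assignments of 4 against 4 allow is 0.0286.

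**Figure D5:**
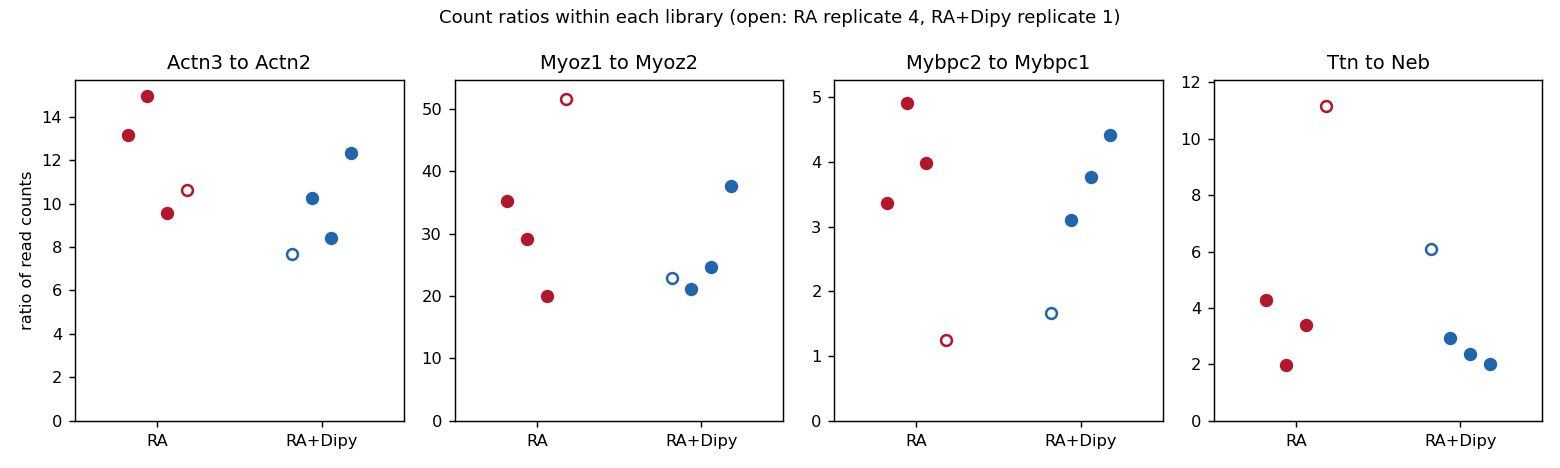
Ratio of read counts (linear axis from 0) for 4 pairs of the scaffold genes in each library of RA and RA+Dipy. In every panel the groups overlap, and the open points set the lowest Mybpc2 to Mybpc1 ratios (1.26 and 1.67) and the highest Ttn to Neb ratios (11.2 and 6.09).

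The other proteins of these structures, in 4 lists chosen by role, gave the same picture of no call. Of 21 other Z-disc genes 11 were higher and 10 lower in RA+Dipy, their median log2 difference being 0.02, beside 0.02 over all genes. Over the 6 other libraries 8 were higher and 13 lower. Pdlim7, a PDZ and LIM domain protein related to ZASP, had the smallest p, at 542 ± 313 CPM (RA) against 301 ± 47.7 CPM (RA+Dipy) (log2 −0.85, SE 0.39; edgeR adjusted p = 0.882). It was at 997 CPM in RA replicate 4 and 235 to 451 elsewhere, and its value was −0.36 without that library and −0.26 without the 2. Tcap, the telethonin that caps titin at the Z-disc, had a log2 fold change of −1.01 (SE 0.55). Tcap was at 15596 CPM in RA replicate 4 and 2270 to 4701 CPM in the other 7 libraries. The Tcap value was −0.14 without RA replicate 4, −0.37 without the 2 and −0.33 with the GC and length offsets. Xirp1, which binds actin filaments, stood at −0.41 (SE 0.29) and at −0.04 without the 2. Leaving out RA replicate 4 alone gave −0.21, and leaving out RA+Dipy replicate 1 alone gave −0.23.

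Of the 14 genes of the M-band and thick filament 12 were tested, 6 higher and 6 lower, with a median of 0.0031, and 8 higher and 4 lower without the 2. The ligase Trim54, at 453 ± 220 and 281 ± 51.3 CPM, stood at −0.69 on the log2 scale (SE 0.35), at −0.28 without RA replicate 4, at −0.40 without the 2 libraries and at −0.25 with the GC and length offsets. Myom3, a myomesin of the M-band, was at 0.40 (SE 0.36) and at 0.44 without the 2. Leaving out RA replicate 4 or RA+Dipy replicate 3 gave 0.22 for Myom3, and leaving out RA+Dipy replicate 1 gave 0.62.

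Of 12 genes of the thin filament 7 were higher and 5 lower, with a median of 0.02. Lmod2, a leiomodin that nucleates actin, was at 0.47 (SE 0.34). Klhl40, which stabilises nebulin, was at −0.80 (SE 0.64) and Tmod1, which caps the pointed end of actin, at 0.57 (SE 0.59). Klhl40 was at 799 CPM in RA replicate 4 and 360 CPM for RA+Dipy replicate 1, against 114 to 185 elsewhere, and it stood at −0.33 without the 2 and −0.22 with the GC and length offsets. Its value was 0.25 when RA replicate 4 alone was left out and −1.36 when RA+Dipy replicate 1 was. Leaving out RA replicate 4 gave 0.27 for Lmod2, and leaving out RA+Dipy replicate 3 gave 0.30. Tmod1 was at 111, 115 and 134 CPM in RA replicate 2 and RA+Dipy replicates 3 and 4, the libraries with high Neb, and at 17.8 to 74.9 in the others. Its value ran from 0.26 without RA+Dipy replicate 4 to 1.10 without RA replicate 2.

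Of 12 genes of titin-linked and Z-disc signalling 8 were higher and 4 lower, with a median of 0.16, and −0.02 without the 2 libraries. The autophagy receptor Sqstm1, which is recruited to the titin kinase region, was at 780 ± 93.6 CPM (RA) against 587 ± 86.4 CPM (RA+Dipy) (log2 −0.41, SE 0.26; edgeR adjusted p = 0.882). Ankrd2, a stretch-responsive ankyrin protein that binds titin, was at −0.45 (SE 0.32), and Rcan1, an inhibitor of calcineurin that calcineurin itself induces, at −0.38 (SE 0.32). Ankrd2 was at −0.22 without RA replicate 4 and −0.081 with the GC and length offsets. Rcan1 was at −0.16 without RA replicate 3 and −0.57 without RA replicate 1. No marker of another cell type passed in edgeR. The summed macrophage markers (5 of 5 higher) ran from 68.6 to 119 CPM in RA and from 104 to 213 CPM in RA+Dipy, and the 3 adipocyte markers reached 190 CPM in RA+Dipy replicate 4 against 18.3 to 40.1 CPM elsewhere. The Schwann cell markers were lower in 3 of 3 cases (median −0.98), the endothelial ones higher in 3 of 3 and the fibroblast ones in 3 of 4. An unadjusted edgeR p under 0.05 was found for 2 Schwann cell, 2 macrophage, 2 adipocyte, 1 fibroblast and 0 endothelial markers, against 3.83% of all genes. Without the 2 libraries these counts were 1, 3, 3, 2 and 2, against 11.4% of all genes. The Schwann cell median was −0.51 there. The part of these cells in the members' values was not tested. In none of the 4 lists did a gene pass in edgeR over all genes, and 0 of their 57 tested genes had an unadjusted p under 0.05, against 3.83% of all genes. In the fit of the 6 other libraries 2 genes of the M-band and thick filament, 1 of the thin filament, 1 of signalling and 0 of the other Z-disc genes had one, against 11.4% of all genes.

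Genes with the most similar pattern were taken by Pearson r of log2 CPM over the 8 libraries among 6941 genes, as a description. For Myoz2 this was Ldhb, the heart-type lactate dehydrogenase subunit, with r = 0.990 over 8 libraries and 0.991 over the 6 that did not stand apart. For Neb it was Mob1a (0.984 and 0.993) and for Myoz1 Pfdn6 (0.980 and 0.987). For Ldb3 the closest gene was the fast myosin Myh4 (0.995 over 8 and 0.916 over 6 libraries). The closest genes to Ttn, Actn2, Actn3, Myot, Mybpc1 and Mybpc2 were Deptor, Nelfcd, Zbtb22, Chchd3, Letm1 and Colgalt1, with r from 0.894 to 0.998 over 8 libraries and 0.862 to 0.964 over the 6. The second most similar genes, in the same order of members as at the outset, were Ebf1, Abi1, Scarf2, Trim3, Dand5, Tmem14c, Strada, Etfa, Col6a1 and Fam168b, with r from 0.851 to 0.998 over 8 and 0.596 to 0.987 over 6 libraries. For both genes named beside Neb and Myoz1, and for Ldhb and Letm1, r was as high or higher over the 6 libraries, and for the others it was lower. In every case both genes of a pair are read from the same libraries at the same depth.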

How the data were processed

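The authors deposited raw read counts per protein-coding gene for each of 8 poly(A) libraries as symbols with whole numbers. Per the series' design text and the submitters' processing notes, single reads were trimmed with fastp, aligned to GRCm38.p6 (mm10) with STAR 2.7.3a and counted with HTSeq without strand. Their annotation release was not found in these sources. The labels name the TruSeq system and the design text a directional NEBNext kit. Counts of repeated symbols were summed. Genes were kept by filterByExpr with a minimum count of 10 (9078 removed), scaled by TMM and tested with edgeR 4.0.16 in R 4.3.3 (quasi-likelihood), group as the sole term and robust estimates, with Benjamini-Hochberg adjustment over all genes and a threshold of 0.05. Scripts were tested on simulated data. Alternatives used DESeq2 1.42.0 and limma 3.58.1. Positions, lengths and GC content come from GENCODE vM21, in which 98.0% of symbols were matched. Replicates all differed by more than sampling noise (smallest chi-square per degree of freedom 29.4), and p-values set the group difference against the spread between these samples. The members, lists and tests were chosen with earlier results of these data known. Named genes were the 10 members, the 3 smallest p of each companion list, the 2 genes most like each member, and 4 myosins. Of these, 1 is not reported here.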

Additional observations from a re-analysis of the deposited data

Results flagged for a closer look

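In 2 cases a value lay far from the other 3 of its group, the gap to the nearest being 0.890 and 0.938 of the group's range. Both came from RA+Dipy replicate 1: Ttn at 11221 CPM, where the next was 6346, and Actn3 at 4143 CPM, where the next was 8840. A total of 28 groups of 4 values were examined (10 genes and 4 ratios in each of the 2 groups), and chance gives about 1 in 20.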

How the results depend on the processing

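The fit was repeated under 19 alternatives: other scalings, filters and tools, GC and length offsets, the replicate block, and fits without single libraries. No member passed an adjusted p of 0.05 in any of them. The genes called stayed at 0 except in limma-voom with library weights, which called 133 (111 higher and 22 lower), and the cause was not tested. With those weights 2 members, Myoz1 and Neb, had an unadjusted limma p under 0.05, with adjusted p of 0.122 each. In the same weighted fit 3638 genes had one, where the main fit tested 12755 genes. The members' share was therefore not above that of all genes. At an unadjusted p under 0.05 the 8-library edgeR fit gave 488 genes, DESeq2 740, limma-voom 379, limma-voom with weights 3638, the fit without RA replicate 4 and RA+Dipy replicate 1 1461, and fits without 1 library 178 to 1187.

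Actn3, Myoz1, Neb and Mybpc1 kept their direction under all 19 alternatives, and the other 6 members did not. Actn2 was at 0.051 with library weights. Without RA replicate 4 and RA+Dipy replicate 1, Actn2 was at 0.12, Myot at −0.0040, Myoz2 at −0.28 and the log2 ratio of Mybpc2 to Mybpc1 at −0.12. With GC and length offsets Myh7 was at 0.10 and the members' median at −0.06 against 0.03, and of the members Myoz1, Mybpc1, Myoz2, Actn2, Actn3 and Ldb3 moved by over 1.5 times, Ldb3 to 0.048 and the others to the values given with each gene. Leaving out 1 library at a time gave −0.43 to 0.26 for Ttn, −0.086 to 0.31 for Ldb3, −0.089 to 0.43 for Mybpc2, −0.22 to 0.23 for Myoz2, −1.36 to 0.25 for Klhl40, −0.29 to 0.12 for Myh7 and −0.076 to 0.18 for Myh4. Actn2 ran down to −0.58 and Myot up to 0.54. The members' median ran from −0.06 to 0.17. The log2 ratio difference ran from −0.40 to 0.31 for Mybpc2 to Mybpc1, −0.45 to −0.21 for Actn3 to Actn2, −0.53 to −0.08 for Myoz1 to Myoz2 and −0.84 to −0.0052 for Ttn to Neb. The cause of these changes was not tested.

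The correlation of same-numbered deviations from the group means was −0.29, 0.16, 0.24 and −0.39 for numbers 1 to 4. Numbers 1 and 4 each hold a library that stood apart, and these libraries also enter the group means. The values therefore cannot decide whether the replicate numbers pair the libraries. With the replicate block 0 genes and 0 members were called (165 genes at an unadjusted edgeR p under 0.05), and the members' median was 0.05.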
